A study of Homo sapiens with 4 samples.

Results

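The CC chemokines described here are CCL2, CCL5, CCL20, CCL22 and CCL28, 5 of the 43622 gene rows in the deposited expression table, taken by name. RNA-seq was carried out on PC3 cells, an established line of human prostatic adenocarcinoma, and on PC3-shp14ARF cells, in which a short hairpin RNA (shRNA) against the tumor suppressor p14ARF was delivered by a retrovirus and kept by selection with hygromycin. The study asked which responses to MLN4924, an inhibitor of NEDD8 conjugation to cullins and other proteins, depend on p14ARF. Cells were treated for 3 days, giving 4 conditions with 3 libraries each.

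Ctrl was unmodified PC3 with DMSO, MLN was unmodified PC3 with 1 µM MLN4924, shARF was PC3-shp14ARF with DMSO, and Both was PC3-shp14ARF with 1 µM MLN4924. No control shRNA or empty vector is named for the unmodified cells, so the shRNA, the viral integration and the drug selection cannot be told apart in a comparison of the 2 cell populations. The shRNA lowers the transcript and does not delete the gene. Nothing says that the 3 libraries of a condition came from separate cultures, and p-values then measure only the spread between these libraries.

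CC chemokines are small secreted proteins that bind G protein-coupled CC receptors and guide the migration of leukocytes along a gradient. Tumor and other epithelial cells can secrete them, and several, CCL2, CCL5 and CCL20 among them, are well known transcriptional targets of NF-kB, whose inhibitor IkB-alpha is degraded through a ubiquitin ligase that depends on NEDD8. CCL2 attracts monocytes through CCR2, CCL5 attracts T cells and monocytes, CCL20 attracts lymphocytes and dendritic cells through CCR6, CCL22 binds CCR4, and CCL28 is a mucosal chemokine that binds CCR10 and CCR3.

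Values are TPM, transcript abundances scaled for gene length and to one total per library, and the sequencing depth behind them is unknown. Libraries of the same condition correlated at 0.982 to 0.988 (Pearson's r across genes, which are not independent replicates) and libraries of different conditions at 0.820 to 0.958. CDKN2A, the gene of p14ARF, averaged 183 TPM ± 6.49 (SD, n = 3) in Ctrl and 118 ± 16.4 with MLN4924, against 59.3 ± 1.47 in shARF and 47.5 ± 6.40 in Both, and every library of PC3-shp14ARF cells was below every library of unmodified cells. This row also counts the p16INK4a transcript of the gene, and the p14ARF transcript was not measured on its own. The 5 epithelial markers reached 1 TPM in at least 1 condition, and their sum fell with the drug, from 907 to 1004 TPM in Ctrl to 439 to 504 in MLN, and from 1138 to 1280 in shARF to 433 to 450 in Both. Among them KRT8 did not fall in unmodified cells, with 90.6 TPM in Ctrl and 93.1 in MLN. Of the 4 prostate luminal markers 1 reached 1 TPM, and their sum was at most 2.87 TPM in any library. The endothelial sum (3 genes) was 11.0 to 12.6 TPM in Ctrl and at most 1.97 TPM elsewhere, and the fibroblast sum (4 genes) was 53.1 to 64.0 TPM in shARF and between 10.1 and 22.0 TPM elsewhere. Nearly all of the endothelial sum in Ctrl was PECAM1 (11.7 TPM). The higher fibroblast sum in shARF was that of COL1A2, at 6.73 TPM in Ctrl and 54.5 in shARF. COL1A1 was lower there (7.27 and 4.04 TPM), as was PDGFRB (0.376 and 0.176 TPM), and DCN was at most 0.101 TPM in any mean. The summed level of 8 leukocyte markers ran from 212 to 266 TPM in Ctrl and 445 to 615 with MLN4924, against 115 to 145 in shARF and 311 to 353 in Both. Its main genes moved apart, with CD68 at 187 TPM in Ctrl and 545 in MLN and LYZ at 43.6 and 5.99, and CD79A, the other one to reach 1 TPM, was at 0.335 and 2.06. The pan-leukocyte gene PTPRC reached at most 0.322 TPM in any library and MS4A1 was at 0 in all 12. The part of these marker levels in the results was not tested. In these bulk libraries, fewer cells that make a chemokine and less of its RNA per cell cannot be told apart.

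The 5 chemokines did not share one response. CCL20 was the highest of them in Ctrl at 50.6 TPM and was at 0.506 TPM in shARF, while CCL2 was near 20 TPM in both DMSO conditions and fell with MLN4924 to 2.54 TPM in MLN and 10.7 TPM in Both. CCL28 was lowest in Both, CCL5 was highest in shARF, and CCL22 was too low to judge. A chemokine was taken as too low where its mean was below 1 TPM in all 4 conditions, and CCL22 was the 1 member to which this applied. All 5 passed the filter for testing, an average of 0.1 TPM or more across the 12 libraries, as did 19932 genes in all, and CCL22 passed it through its values in MLN.

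**Figure D1:**
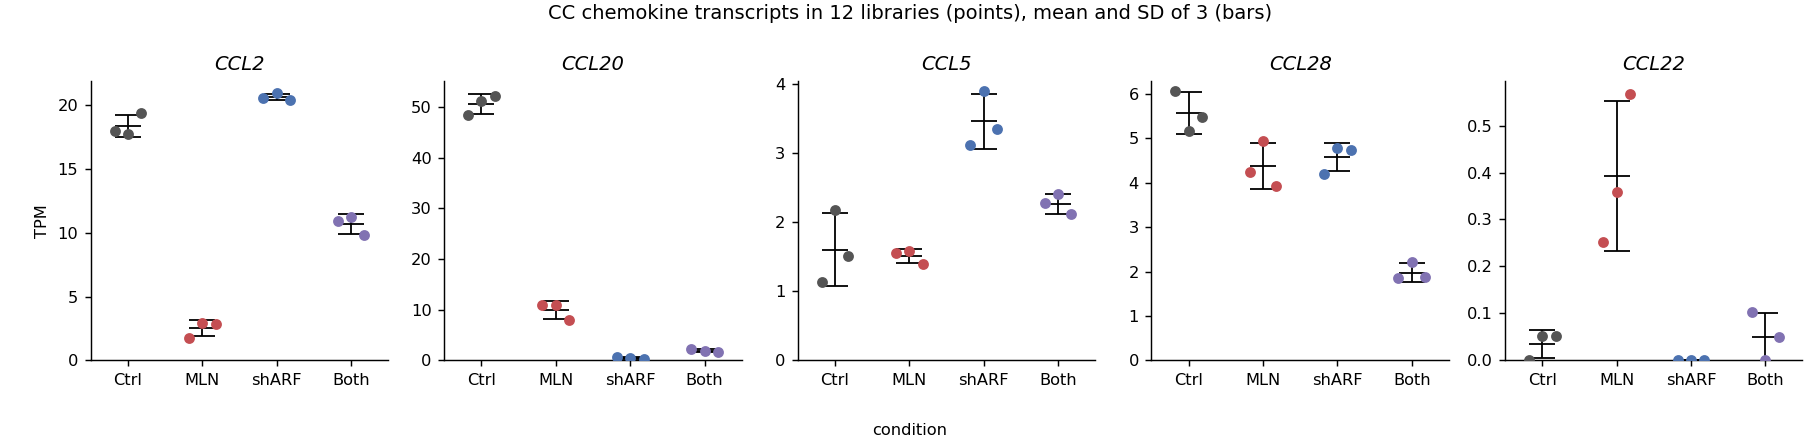
Level of each CC chemokine in TPM (linear axis from 0, a separate range for each gene) in the 12 libraries, as points, with the mean and SD of the 3 libraries of a condition as bars. CCL20 went from a mean of 50.6 TPM in Ctrl to 0.506 in shARF, CCL2 from 18.3 in Ctrl to 2.54 in MLN, and CCL22 stayed below 1 TPM throughout.

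CCL2 lies on chromosome 17 of GRCh38, from 34255274 to 34257208 on the plus strand, with 3 exons in its canonical transcript. Its level in Ctrl was 17.9, 17.7 and 19.4 TPM, and in MLN 1.78, 2.95 and 2.89 TPM. The shARF libraries held 20.5, 20.9 and 20.4 TPM, and those of Both 10.9, 11.2 and 9.78 TPM. The order was shARF, Ctrl, Both, MLN, and no condition's libraries overlapped those of its neighbour in this order.

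With MLN4924, CCL2 fell 7.22-fold in unmodified cells and 1.93-fold in PC3-shp14ARF cells. On the log2(TPM + 0.1) scale, which understates the change of low genes, the difference was -2.84 (SE 0.20, adjusted p = 7.30e-05, limma) in MLN vs Ctrl. Among the 19932 genes, 227 fell at least as far in that comparison, CCL2 included. In Both vs shARF the difference was -0.95 (SE 0.065, adjusted p = 6.62e-05). The fall was therefore smaller with the shRNA, and the interaction, (Both - shARF) - (MLN - Ctrl), was 1.89 (SE 0.21, adjusted p = 5.82e-05).

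Between the cell populations, CCL2 was 4.19-fold higher in Both than in MLN (log2 2.06, SE 0.21, adjusted p = 0.00160). Without drug it was 1.12-fold higher in shARF than in Ctrl (log2 0.17, SE 0.043, adjusted p = 0.0292). This small rise lost its call with median-of-ratios scaling (0.16, adjusted p = 0.0520), with the 12 libraries in one fit (adjusted p = 0.410), and without any 1 of Ctrl replicates 1 and 2 or shARF replicates 1, 3 and 5 (0.14 to 0.18, adjusted p 0.0702 to 0.0889).

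CCL7, another monocyte attractant, lies 13.0 kb from CCL2 on chromosome 17 and was far lower. It was at 0.177 TPM ± 0.00392 in Ctrl and 1.15 ± 0.116 in shARF, a rise of 2.18 on the log2 scale (SE 0.12, adjusted p = 0.000249). With MLN4924 in PC3-shp14ARF cells it fell to 0.404 TPM ± 0.101 (log2 -1.33, SE 0.21, adjusted p = 0.00205). In unmodified cells with the drug it was at 0.404 TPM ± 0.199. Both means of unmodified cells were below 1 TPM, so no fold change is given between them. The interaction was -2.10 (SE 0.46, adjusted p = 0.00532) and rests in part on these low means. The Ctrl libraries lay at 0.181, 0.173 and 0.176 TPM, and with an unknown depth their small SD may not measure precision. This SD also enters the SE of the rise in shARF.

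CCL20 spans 227805739 to 227817564 on the plus strand of chromosome 2, with 4 exons in its canonical transcript. Its level in Ctrl was 48.5, 51.1 and 52.3 TPM, which placed it within the upper 17.2% of the genes tested. In MLN it was 11.0, 10.9 and 7.97 TPM. The shARF libraries held 0.586, 0.579 and 0.355 TPM, and those of Both 2.34, 1.92 and 1.63 TPM. The order was Ctrl, MLN, Both, shARF, with no overlap between neighbours, and all libraries with the shRNA lay below all without it.

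MLN4924 lowered CCL20 in unmodified cells and raised it in PC3-shp14ARF cells, from a level below 1 TPM. In MLN vs Ctrl it fell 5.09-fold (log2 -2.35, SE 0.13, adjusted p = 3.29e-05). In Both vs shARF it rose 3.88-fold (log2 1.78, SE 0.24, adjusted p = 0.00113), and this size depended on the pseudocount, with 0.97 at a pseudocount of 1. The interaction was 4.13 (SE 0.26, adjusted p = 7.09e-07) and rests on the same shARF level below 1 TPM. Of the 19932 genes, 41 had a positive interaction at least as large, CCL20 among them.

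Without drug, CCL20 was 100.0-fold lower in shARF than in Ctrl (log2 -6.41, SE 0.18, adjusted p = 4.84e-05), and 22 genes fell at least as far, CCL20 included. With shARF below 1 TPM, the log2 size depended on the pseudocount, with -5.10 at 1 and -6.65 at 0.01. Under MLN4924 it was 5.06-fold lower in Both than in MLN (log2 -2.28, SE 0.19, adjusted p = 0.000921). Both shRNA comparisons share libraries with the drug comparisons, so the 4 fold changes are not independent of each other.

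**Figure D2:**
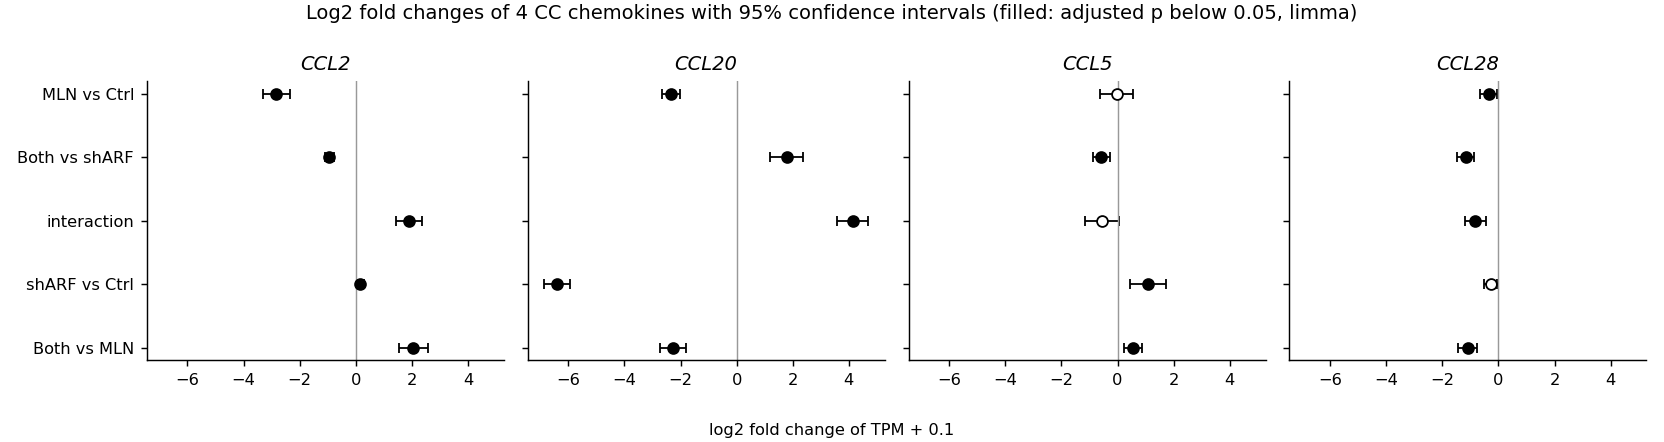
Log2 fold change of TPM + 0.1 with its 95% confidence interval for the 4 CC chemokines that could be judged, in the 4 pairwise comparisons and in the interaction, with filled points at an adjusted p below 0.05 (limma). CCL20 ranged from -6.41 in shARF vs Ctrl to 4.13 in the interaction, while the intervals of CCL5 crossed 0 in MLN vs Ctrl and in the interaction.

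The upstream sequences of CCL20 and CCL28 are shown because these are the 2 judged members with an entry in the RefSeq promoter table (GRCh38.p14) and because the motif content of their windows differed. For CCL20 the window ends 21 bases before the RefSeq transcription start at 227813842 on the plus strand, since 20 further bases are exonic in another annotation. This start lies inside the span of the GENCODE gene. For CCL28 it ends at the base before the start at 43412391 on the minus strand. Capitals mark a match to the kB consensus of RelA, found on the strand opposite to the gene 79 to 70 bases before the CCL20 start, and the letters TATAAA, 29 to 24 bases before it.
CCL20, chr2:227813592-227813821, plus strand: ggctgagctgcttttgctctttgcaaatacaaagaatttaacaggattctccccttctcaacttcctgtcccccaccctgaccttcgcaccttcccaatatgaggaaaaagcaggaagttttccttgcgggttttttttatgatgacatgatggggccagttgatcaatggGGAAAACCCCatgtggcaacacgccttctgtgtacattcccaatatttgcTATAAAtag
CCL28, chr5:43412392-43412641, minus strand: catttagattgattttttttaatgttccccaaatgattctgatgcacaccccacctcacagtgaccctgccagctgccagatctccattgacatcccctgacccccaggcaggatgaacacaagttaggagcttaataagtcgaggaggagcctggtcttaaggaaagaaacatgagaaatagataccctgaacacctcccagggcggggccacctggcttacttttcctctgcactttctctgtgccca

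The kB consensus, the AP-1 letters TGANTCA and TATAAA were searched on both strands, and the printed CCL28 window held none of them. Over the 250 bases before the start of 35116 RefSeq promoters, 9.96% held the kB consensus, 6.57% the AP-1 letters and 10.7% TATAAA. A match describes letters and is not a measured binding site.

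NFKBIZ, which encodes an atypical IkB protein, also fell with the drug in unmodified cells, rose with it in PC3-shp14ARF cells and fell with the shRNA. It averaged 170 TPM in Ctrl, 30.5 with the drug alone, 10.5 with the shRNA alone and 40.0 with both, with differences of -2.48 in MLN vs Ctrl, 1.92 in Both vs shARF, -4.00 in shARF vs Ctrl and, unlike CCL20, 0.39 in Both vs MLN (adjusted p from 1.06e-05 to 0.0145). Its interaction was 4.39 (SE 0.13, adjusted p = 1.16e-09). TNFAIP3, a ubiquitin-editing inhibitor of NF-kB signaling, also fell with the shRNA, from 12.4 TPM in Ctrl to 1.08 in shARF, but rose with MLN4924 in unmodified cells to 16.3 TPM (log2 0.39, SE 0.086, adjusted p = 0.00816). In Both it was at 2.74 TPM, with differences in the direction of CCL20, 1.27 in Both vs shARF and -2.53 in Both vs MLN (adjusted p = 0.000420 and 0.000165, limma). The interaction of TNFAIP3 was 0.88 (SE 0.15, adjusted p = 0.00121). NFKBIA, which encodes IkB-alpha, averaged 375 TPM in Ctrl, fell to 57.2 with the drug and to 72.9 with the shRNA, and was at 42.9 with both.

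Among 13 genes for NF-kB subunits, kinases and inhibitors, 8 were called higher and 4 lower in MLN vs Ctrl, and 9 higher and 4 lower in Both vs shARF, where 61.6% and 61% of all genes tested were called. In shARF vs Ctrl 2 were higher and 8 lower, in Both vs MLN 3 higher and 5 lower, and in the interaction 6 were positive and 1 negative, beside 41.4%, 32.4% and 28.3% of all genes. The median log2 difference of these 13 genes was 0.57 in MLN vs Ctrl, 1.00 in Both vs shARF, -0.59 in shARF vs Ctrl, -0.13 in Both vs MLN and 0.24 in the interaction, beside 0.052, -0.038, 0, -0.080 and -0.085 over all genes tested.

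**Figure D3:**
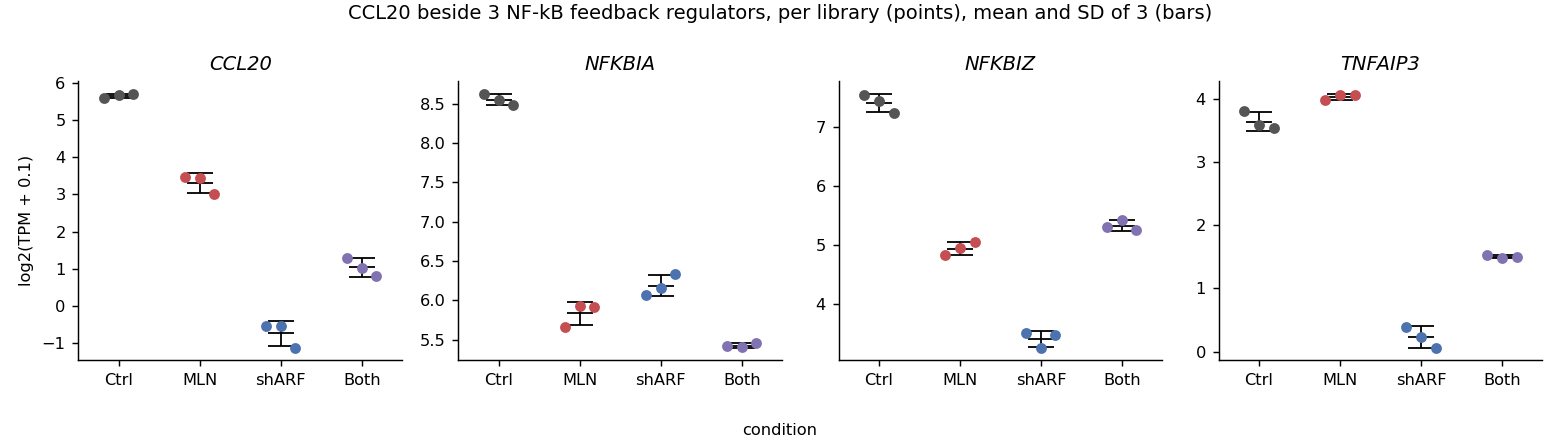
Level of CCL20 and of 3 feedback regulators of NF-kB as log2(TPM + 0.1) in the 12 libraries, as points, with the mean and SD of 3 as bars and a separate range for each gene. All 4 genes were higher in Ctrl than in shARF, and from Ctrl to MLN the means of NFKBIA (375 to 57.2 TPM) and NFKBIZ (170 to 30.5 TPM) fell with CCL20 while TNFAIP3 rose from 12.4 to 16.3 TPM.

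CCL5 lies on the minus strand of chromosome 17 from 35871491 to 35880793, with 4 exons in its canonical transcript. In Ctrl it was at 1.14, 2.18 and 1.51 TPM, and in MLN at 1.56, 1.59 and 1.40 TPM. The shARF libraries held 3.12, 3.91 and 3.36 TPM, and those of Both 2.28, 2.41 and 2.13 TPM. The shARF libraries were above all others, those of Both overlapped Ctrl, and those of Ctrl enclosed MLN. A long noncoding RNA gene on the opposite strand overlaps a CCL5 exon, and as the strandedness of the libraries is not stated, reads of the pair may not have been told apart.

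CCL5 was 2.15-fold higher in shARF than in Ctrl (log2 1.10, SE 0.25, adjusted p = 0.0208) and 1.50-fold higher in Both than in MLN (log2 0.55, SE 0.13, adjusted p = 0.0222). With MLN4924 it fell 1.52-fold in PC3-shp14ARF cells (log2 -0.58, SE 0.12, adjusted p = 0.00782). In unmodified cells the difference was -0.035 (95% interval -0.64 to 0.57, adjusted p = 0.917). Neither this nor the interaction, -0.55 (95% interval -1.16 to 0.065, adjusted p = 0.172), passed the test, so a difference between the 2 drug responses was not shown.

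Several CCL5 calls lay close to the threshold and were lost with 1 library fewer, while their values stayed near 1.10 (shARF vs Ctrl) and 0.55 (Both vs MLN). The shARF vs Ctrl call was lost without Ctrl replicate 3 or any 1 shARF library (1.01 to 1.17, adjusted p 0.0543 to 0.0717), and the Both vs MLN call without MLN replicate 2 or 5 or Both replicate 2 or 3 (0.50 to 0.59, adjusted p 0.0550 to 0.0692). Ctrl replicate 2 was the highest Ctrl library, and without it the interaction was called (-0.78, adjusted p = 0.0293) and MLN vs Ctrl turned to 0.20 (adjusted p = 0.426). Without MLN replicate 5, MLN vs Ctrl was 0.019.

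CCL28 extends from 43376645 to 43412391 on the minus strand of chromosome 5, with 3 exons in its canonical transcript. Its level was 6.08, 5.16 and 5.47 TPM in Ctrl and 4.24, 4.95 and 3.93 TPM in MLN. The shARF libraries held 4.21, 4.77 and 4.74 TPM, and those of Both 1.85, 2.22 and 1.87 TPM. The libraries of Both were below all others, those of MLN and shARF overlapped, and those of Ctrl were above all others.

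The fall of CCL28 with MLN4924 was larger in the cells with the shRNA, opposite to CCL2. In Both vs shARF it fell 2.31-fold (log2 -1.17, SE 0.12, adjusted p = 0.000326). In MLN vs Ctrl the difference was -0.34 (SE 0.12, adjusted p = 0.0481), a call that was lost without any 1 Ctrl library or MLN replicate 1 or 5 (-0.40 to -0.27, adjusted p 0.0610 to 0.132). The interaction was -0.83 (SE 0.17, adjusted p = 0.00413). Under MLN4924 CCL28 was 2.21-fold lower in Both than in MLN (log2 -1.10, SE 0.14, adjusted p = 0.00309), while in shARF vs Ctrl the difference of -0.28 (95% interval -0.52 to -0.037, adjusted p = 0.0688) did not pass the test and did so with median-of-ratios scaling (adjusted p = 0.0423).

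CCL22 lies on the plus strand of chromosome 16 from 57358783 to 57366189. It was listed at 0 in 1 Ctrl library and at 0.0511 and 0.0519 TPM in the others, and in MLN it was at 0.252, 0.359 and 0.566 TPM. It was listed at 0 in the 3 shARF libraries, and in Both it was at 0.102, 0 and 0.0499 TPM. The MLN libraries were above all others, but with levels below 1 TPM in every condition and an unknown depth no fold change and no p are given. CCL17, which also binds CCR4 and lies 38.6 kb away, was at or below 0.0811 TPM in the mean of every condition.

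Counted over the 4 members that could be judged, 3 were called in MLN vs Ctrl, all lower, where 61.6% of all genes tested were called (32.2% higher and 29.4% lower). In Both vs shARF 4 were called (CCL20 higher, 3 lower), where 61% of genes were called (28.3% higher and 32.8% lower). In shARF vs Ctrl 3 were called (CCL2 and CCL5 higher, CCL20 lower) beside 41.4% of genes (21% higher and 20.4% lower). In Both vs MLN 4 were called (CCL2 and CCL5 higher, CCL20 and CCL28 lower) beside 32.4% of genes (11.8% higher and 20.6% lower), and in the interaction 3 (CCL2 and CCL20 positive, CCL28 negative) beside 28.3% (11.2% positive and 17.1% negative).

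With so large a share of all genes called, a count of 3 or 4 members is not a result about the chemokines. CCL22 passed the threshold too in MLN vs Ctrl (higher in MLN) and Both vs MLN (lower in Both), which brings the counts over 5 members to 4 and 5, but it entered the fit through its values in MLN and these calls are no support. The median log2 difference of the 4 judged members was -1.35 in MLN vs Ctrl, -0.77 in Both vs shARF, -0.055 in shARF vs Ctrl and -0.27 in Both vs MLN, beside 0.052, -0.038, 0 and -0.080 over all genes tested. These medians hide members that lay far apart. In the same order, the members ran from -2.84 to -0.035, from -1.17 to 1.78, from -6.41 to 1.10 and from -2.28 to 2.06. Over the 5 members, the calls in shARF vs Ctrl came down to 1 without any 1 shARF library, and those in Both vs MLN to 3 without MLN replicate 2 or 5.

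The 5 members were part of 26 CC ligand rows, of which 13 were at 0 in every library and 7 reached a mean of 1 TPM in a condition. The ligand with the highest condition mean was not a member, although in Ctrl CCL20 was above it. CCL26, an eotaxin that attracts eosinophils through CCR3, averaged 45.4 TPM ± 4.47 in Ctrl and 283 ± 24.7 with MLN4924, against 34.0 ± 2.33 in shARF and 203 ± 18.4 in Both. It rose with MLN4924 in both cell populations (log2 2.64, SE 0.094, adjusted p = 8.38e-06, and 2.58, SE 0.084, adjusted p = 5.26e-06), and its interaction was -0.061 (95% interval -0.34 to 0.22, adjusted p = 0.770). CCL24, an eotaxin gene 20.9 kb from CCL26 on chromosome 7, fell with the drug instead (-1.42 and -1.53, adjusted p = 0.00662 and 0.00772) from means of 1.72 and 1.10 TPM.

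The members accordingly took a smaller share of the summed CC ligand level under MLN4924. The sum was 124 TPM ± 6.27 in Ctrl and 303 ± 26.3 with MLN4924, against 65.7 ± 3.58 in shARF and 221 ± 19.9 in Both. CCL20 made up 40.9% ± 1.01 of it in Ctrl and 3.27% ± 0.473 with MLN4924, and in PC3-shp14ARF cells 0.773% ± 0.209 without and 0.883% ± 0.0851 with the drug. CCL2 made up, in the same order, 14.8% ± 0.286, 0.838% ± 0.208, 31.4% ± 1.48 and 4.82% ± 0.223, so the leading member was CCL20 in unmodified cells and CCL2 in PC3-shp14ARF cells. For CCL26 the shares were 36.6%, 93.4%, 51.7% and 91.8%.

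Of the 21 rows for other CC ligands 5 could be tested, and 1 was called higher and 1 lower in MLN vs Ctrl, 1 higher and 2 lower in Both vs shARF, 1 higher and 1 lower in shARF vs Ctrl, and 1 lower in each of Both vs MLN and the interaction. Of all genes, 61.6%, 61%, 41.4%, 32.4% and 28.3% were called in these comparisons, and counts over 5 ligands or 4 receptors are too small to be set apart from these shares. Receptors of CCL2, CCL20, CCL22 and CCL28 were at low levels. The condition means of CCR2, CCR3, CCR4 and CCR6 were at most 0.210 TPM, while CCR10, the receptor of CCL28, reached 1.05 TPM. Of 15 CC and atypical receptors 4 could be tested. Counted as higher and lower, these gave 0 and 1 in MLN vs Ctrl, 1 and 2 in Both vs shARF, 1 and 1 in shARF vs Ctrl, 0 and 0 in Both vs MLN and 1 and 1 in the interaction. The lower call in MLN vs Ctrl and 1 of the 2 in Both vs shARF were of ACKR2. Its mean was at most 0.345 TPM in any condition, too low to judge by the 1 TPM threshold used for the members.

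Among the tested receptors, ACKR3, an atypical receptor that scavenges chemokines of the CXC family, was at 0.208 TPM in shARF and 2.05 TPM in Both (log2 2.86, SE 0.29, adjusted p = 0.000343). Its mean in Ctrl was 1.72 TPM, so the rise started from a level lowered in shARF vs Ctrl (log2 -2.54, SE 0.42, adjusted p = 0.00708). CCRL2, an atypical receptor that binds chemerin, was at 16.5 TPM in shARF and 9.79 TPM in Both (log2 -0.75, SE 0.084, adjusted p = 0.000497). The mean of CCRL2 in Ctrl was 11.1 TPM, so this fall started from a level raised in shARF vs Ctrl (log2 0.56, SE 0.045, adjusted p = 0.000698, limma). In MLN it was at 10.4 TPM, and Both vs MLN did not pass the test (log2 -0.087, adjusted p = 0.540). In unmodified cells MLN4924 gave values of 0.73 for ACKR3 and -0.10 for CCRL2, and neither passed the test. The interaction was 2.13 for ACKR3 (SE 0.46, adjusted p = 0.00482) and -0.65 for CCRL2 (SE 0.12, adjusted p = 0.00163).

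**Figure D4:**
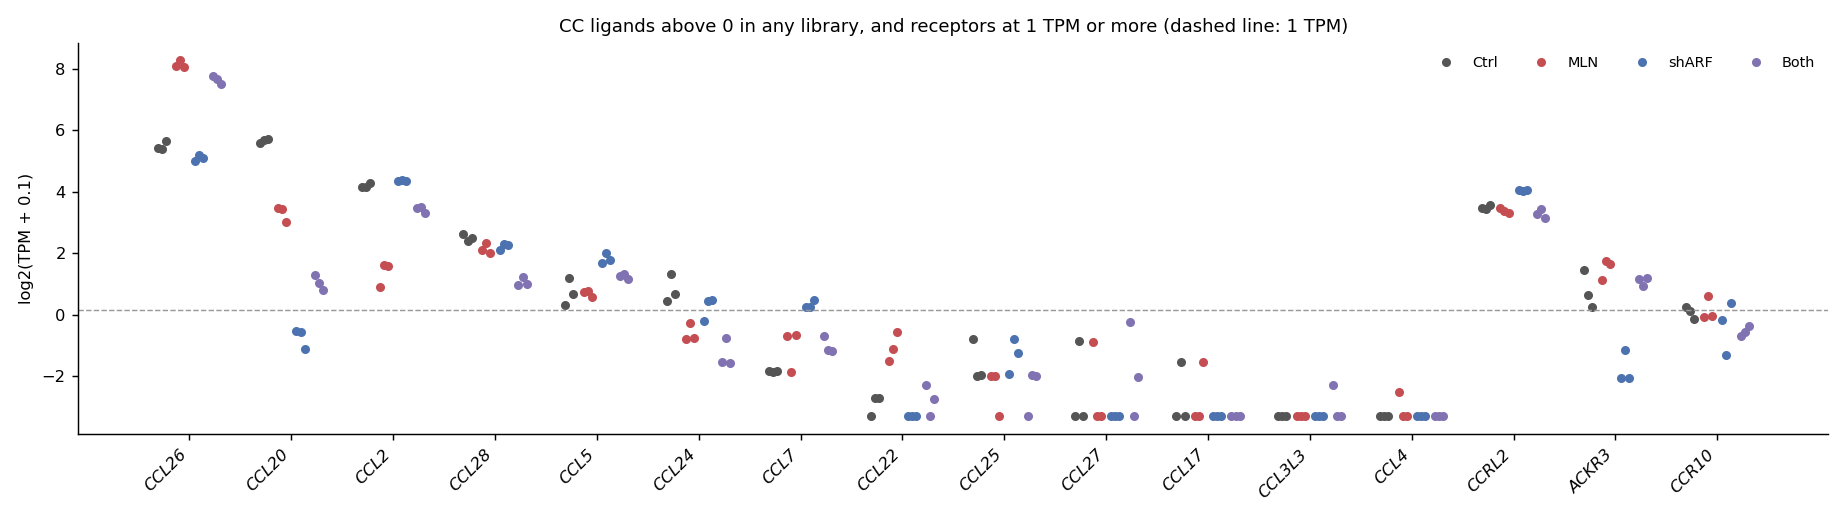
Level as log2(TPM + 0.1) in the 12 libraries, as points colored by condition, of the 13 CC ligands above 0 in any library and of the 3 receptors that reached a mean of 1 TPM, with a dashed line at 1 TPM. CCL26 was the highest ligand in MLN (283 TPM) and Both (203 TPM), CCL20 the highest in Ctrl (50.6 TPM), and CCL22 and the ligands to its right stayed below the line in the mean of every condition.

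The genes nearest to each judged member in pattern were sought among the 14663 genes averaging 1 TPM or more, by the root mean square (RMS) difference of the 4 condition means of log2(TPM + 0.1), each centred on its own average. For CCL20 these were AC010247.1 (0.11), POU2F2, which encodes a B cell transcription factor (0.34), and APOBEC3G, an antiviral cytidine deaminase (0.45). POU2F2 averaged 9.19 TPM in Ctrl, 3.16 with the drug alone, 0.0867 with the shRNA alone and 0.355 with both. AC010247.1 was at 0.0577 TPM in shARF and APOBEC3G at 0.164, so the likeness of all 3 to CCL20 depends on the pseudocount of 0.1. For CCL28 they were AC009509.4 (0.044), the matrix metalloproteinase gene MMP11 (0.054) and the potassium channel gene KCNK6 (0.057).

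For CCL2 no gene came as close as for CCL5 or CCL28, and the nearest were AC023024.2 (0.24), RNU6-6P (0.24) and FOXP4-AS1 (0.31). RNU6-6P is 1 of many copies of the U6 small nuclear RNA and ran from 0 to 15.0 TPM among the libraries of Both, so its place rests on widely spread values. For CCL5 they were PCDHB7 (0.041), the alpha-tubulin gene TUBA1B (0.066), which shares much of its sequence with other tubulin genes, and GUCA1B (0.071). A likeness over 4 condition means is a description and carries no test.

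**Figure D5:**
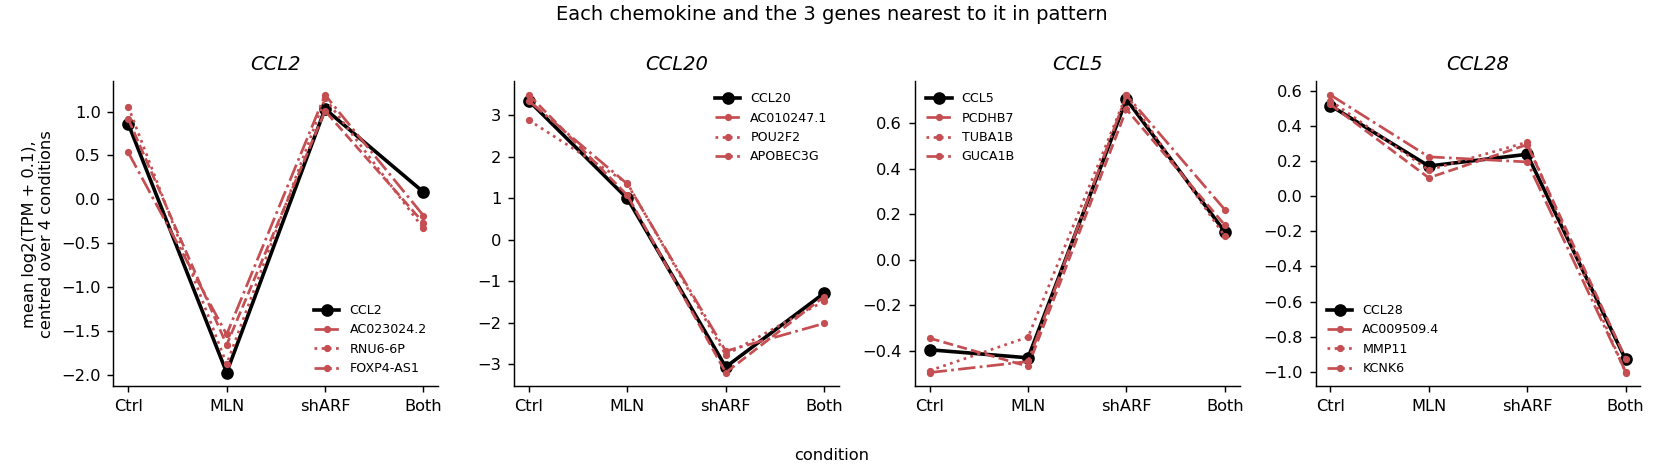
Mean log2(TPM + 0.1) of each condition, centred on the average of the 4 conditions, for each judged CC chemokine (black) and the 3 genes nearest to it (red, told apart by line style). The nearest gene differed by an RMS of 0.24 for CCL2, 0.11 for CCL20, 0.041 for CCL5 and 0.044 for CCL28.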

How the data were processed

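Total RNA of 4 conditions with 3 libraries each was sequenced. The authors trimmed the reads, mapped them to hg38 and quantified genes on an Ensembl annotation in CLC Genomics Workbench, and the values they deposited are TPM for 43622 genes. Every column sums to 1000000 TPM, so depth is unknown and precision rests on the spread of 3 libraries. The labels and methods give an shRNA and 1 µM, which were used here, while the series' design text differs on both. The grouping follows the sample labels, and 3 columns belong to each.

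From the TPM, log2(TPM + 0.1) was compared for the 19932 genes averaging 0.1 TPM or more, by lmFit and eBayes with trend in limma 3.58.1 under R 4.3.3. P-values were adjusted over all these genes after Benjamini and Hochberg, with calls at an adjusted p below 0.05. Pairwise comparisons used their own 6 libraries and the interaction all 12. On simulated libraries with 200 genes changed by 2 on the log2 scale, 96.5% were recovered in MLN vs Ctrl (11 false calls) and 95.5% in the interaction (10 false calls). The changed genes were drawn from those with a mean log2(TPM + 0.1) above 0, so these rates do not cover lower genes. They also come from far fewer changed genes than the 61.6% called in MLN vs Ctrl.

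The chemokines, the lists and the naming rule were chosen with earlier results of these data known. The text names the members, CDKN2A as a check of the labels, in each list up to 3 genes with at least 1 TPM in a condition and the largest called pairwise change, and the 3 genes nearest in pattern to each judged member. CCL17 and the receptors other than ACKR3 and CCRL2 were named after their values were seen. So were the cell type markers PTPRC, CD68, CD79A, LYZ, MS4A1, KRT8, PECAM1, COL1A1, COL1A2, PDGFRB and DCN. Alternatives were another pseudocount (1 or 0.01), a stricter filter (1 TPM) or none, median-of-ratios scaling, eBayes without trend, one fit of 12 libraries, a replicate block and each library left out. Coordinates are from GENCODE on GRCh38, another annotation than the authors', and upstream sequences from RefSeq, where 3 of the 5 members were matched (CCL2 and CCL5 were not).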

Additional observations from a re-analysis of the deposited data

Results flagged for a closer look

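The response to MLN4924 differed between unmodified PC3 cells and PC3-shp14ARF cells for 3 CC chemokines, each by the interaction term of limma over the 12 libraries. For CCL20 the interaction was 4.13 on the log2 scale, with a fall in unmodified cells and a rise from below 1 TPM in PC3-shp14ARF cells. For CCL2 it was 1.89, with a smaller fall in PC3-shp14ARF cells. For CCL28 it was -0.83, with a larger fall there.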

How the results depend on the processing

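The replicate numbers in the column names are not described, and same-numbered libraries of different conditions did not deviate together (correlations of deviations from -0.15 to 0.063, 0 of 10 above 0.1), so the replicate block is given only here. With the replicate block, possible where the 2 conditions share numbers, shARF vs Ctrl kept 0 of 5 members at the threshold in limma (2 at an unadjusted p below 0.05) and 0 of all 19932 genes against 8251 without it, with values of 0.15 for CCL2, 1.35 for CCL5 and -6.21 for CCL20 (adjusted p 0.166, 0.0688 and 0.0607). For shARF and Ctrl only replicate numbers 1 and 3 were shared. The block then leaves few of the 6 libraries to measure spread, so a batch and a loss of precision cannot be told apart in the lost calls. The block gave -0.28 for CCL28 in MLN vs Ctrl (adjusted p = 0.353) and -0.86 in the interaction (adjusted p = 0.0590), and changed no other call of a judged member. CCL28 in MLN vs Ctrl also missed the threshold at a pseudocount of 0.01 (-0.35) and with no filter (-0.34), CCL2 in shARF vs Ctrl with median-of-ratios scaling (0.16) and in one fit of 12 libraries (0.17), and CCL28 in shARF vs Ctrl passed it with median-of-ratios scaling (-0.28). CCL5 in MLN vs Ctrl changed sign without Ctrl replicate 2 (0.20) and MLN replicate 5 (0.019). With 1 library left out, values ran from -0.25 to 0.20 for CCL5 and -0.44 to -0.27 for CCL28 in MLN vs Ctrl, from 0.14 to 0.21 for CCL2 and 0.89 to 1.33 for CCL5 in shARF vs Ctrl, from 0.50 to 0.60 for CCL5 in Both vs MLN, and from -0.78 to -0.34 for CCL5 in the interaction. Members called then ran from 1 to 3 in shARF vs Ctrl and 3 to 5 in Both vs MLN. The causes were not tested. CCL2 and CCL20 kept direction and call under every alternative run in MLN vs Ctrl, Both vs shARF, Both vs MLN and the interaction. Scaling moved the median of all genes by at most 0.093 on the log2 scale. Unknown depth limits what can be said below 1 TPM.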

Other observations

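Matrix metalloproteinases, some of which cleave CC chemokines such as CCL2 and CCL7, were measured in the same libraries. MMP3 averaged 0.895 TPM in Ctrl and 1.25 in shARF, and with MLN4924 634 TPM in unmodified and 1210.5 in PC3-shp14ARF cells (log2 9.32 and 9.80, adjusted p = 4.84e-07 and 7.05e-07, limma). MMP1 averaged 33.5 TPM in Ctrl, 247 with the drug alone, 357 with the shRNA alone and 799.8 with both. MMP14 averaged 633 TPM in Ctrl, fell to 308 with the drug and to 116 with the shRNA, and was at 216 with both. Of the 7 genes listed for chemokine cleavage and cell-surface binding 6 passed the filter for testing, and 2 were called higher and 4 lower in MLN vs Ctrl and 4 higher and 2 lower in Both vs shARF. In shARF vs Ctrl 3 were higher and 2 lower, in Both vs MLN 4 higher and 2 lower, and in the interaction 3 were positive and 1 negative. Of all genes tested, 61.6%, 61%, 41.4%, 32.4% and 28.3% were called in these comparisons, in the same order. Protein and cleavage were not measured.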
